A study of Hordeum vulgare with 64 samples.

Results

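VRN-H1, BM3, BM8 and FT1 are 4 barley genes of the flowering pathway, and they were followed here as 4 of the 43050 rows of the expression tables. They were chosen by identifier: HORVU5Hr1G095630 is VRN-H1 (also BM5), HORVU0Hr1G003020 is BM3, HORVU2Hr1G063800 is BM8 and HORVU7Hr1G024610 is FT1 (also VRN-H3). The tables carry no gene names, and the pairings of identifier and name were taken as given rather than read from an annotation, so no position is given. RNA was sequenced from leaves and roots of the salt- and waterlogging-sensitive variety Nasonijo (NN) and the tolerant variety TX9425 (TX). Seedlings at the stage of 3 leaves, grown in 16 h of light, were given 300 mM NaCl (leaves and roots taken at 10 d, 24 h or 1 h) or flooded to 1 cm over the soil surface (taken at 2 w, 72 h or 1 h). Each experiment had its own unstressed controls, labelled CON, treated here as 0 h and taken from both varieties and tissues. This gave 64 libraries in 32 groups of 2 replicates, where the methods state 3. All times of stress were compared with the unstressed controls, whose titles give no time of harvest. Stress, time of sampling and age of the plants therefore cannot be told apart.

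VRN-H1, BM3 and BM8 are MADS-box transcription factors of the APETALA1/FRUITFULL clade. In winter cereals VRN-H1 is switched on by prolonged cold (vernalization), promotes the change from leaf-making to flower-making and relieves the repression of FT1, and BM3 and BM8 are its close kin in the same clade, also active as the plant moves to flowering. FT1 is made in leaves in long days and encodes the florigen, a small protein that travels to the shoot tip.

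Values are FPKM, read fragments per length of exon and per library size, so levels of different genes are compared per length. Changes are differences of log2(FPKM + 1), which understates the change of low values, and a gene was called where the adjusted p was under 0.05 and the log2 change beyond 1 in either direction. Where libraries are said to lie below or above both controls, 2 are compared with 2. The share of all genes placed so was not counted, so this is description only. In bulk tissue, fewer cells with a transcript and less transcript per cell cannot be told apart. The tables hold no totals. Relative depth, read from the smallest values, ran from 0.201 to 1.06 of a reference library, with the lowest values in waterlogging leaves. In that set, rows of ENSRNA identifiers took 0.61% to 36.1% of the summed FPKM, against 0.134% to 0.469% in salt leaves. In waterlogging roots they took 0.437% to 14.6%, the most in TX replicate 1 at 1 h, where relative depth was 0.543. Replicates correlated across genes (Pearson) at 0.883 to 0.986 for leaves and 0.811 to 0.981 for roots under salt, and at 0.794 to 0.961 and 0.928 to 0.979 for the same tissues under waterlogging. Tissue labels held: 4 rows were at 5 FPKM or more in every salt leaf library and at 0 in every salt root library. They had medians of 7.14 to 33.0 FPKM in waterlogging leaves and at most 0.0368 FPKM in waterlogging roots. Rows particular to a variety were picked in waterlogging roots: at least 1 FPKM in all its libraries and 0 in all those of the other variety. In the NN leaf library of 1 h of salt named replicate 1, 5 of the 20 rows particular to TX were above 0.5 FPKM, against 0 in replicate 2. In roots after 10 d of salt, 5 of those 20 rows were above 0.5 FPKM in NN replicate 2, and 6 and 4 of 25 rows particular to NN in the TX replicates.

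FT1, the florigen gene, was listed at 0 FPKM in all 64 libraries, in both varieties, both tissues and at every time. Of all rows, 9548 (22.2%) were listed at 0 throughout, and of the rows with HORVU identifiers 7356 (18.5%). The FPKM alone do not tell whether no FT1 transcript was present or its reads were not assigned to this row. No change can be given for FT1, and the other 3 genes were read above 0 in every library.

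VRN-H1 was the most abundant of the 3 genes per length in every library. Its lowest, median and highest FPKM were 9.11, 72.9 and 155.4 over the 16 salt leaf libraries and 27.4, 39.3 and 101.7 over the 16 salt root libraries. In waterlogging they were 34.5, 58.3 and 132.6 FPKM in leaves and 52.6, 68.5 and 114.2 FPKM in roots. VRN-H1 therefore lay above 74.3% to 98.4% of the rows read in a salt leaf library and above 91.8% to 97.8% in a waterlogging leaf library. BM3 ranged from 0.365 to 38.5 FPKM in salt leaves and from 0.883 to 14.3 FPKM in waterlogging leaves. BM8 ranged from 0.688 to 45.1 FPKM in salt leaves and from 0.287 to 11.1 FPKM in waterlogging leaves. In roots the spread of each gene was smaller, with the highest library 2.17 to 3.76 times the lowest except for BM8 in waterlogging, where it was 9.99 times.

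**Figure D1:**
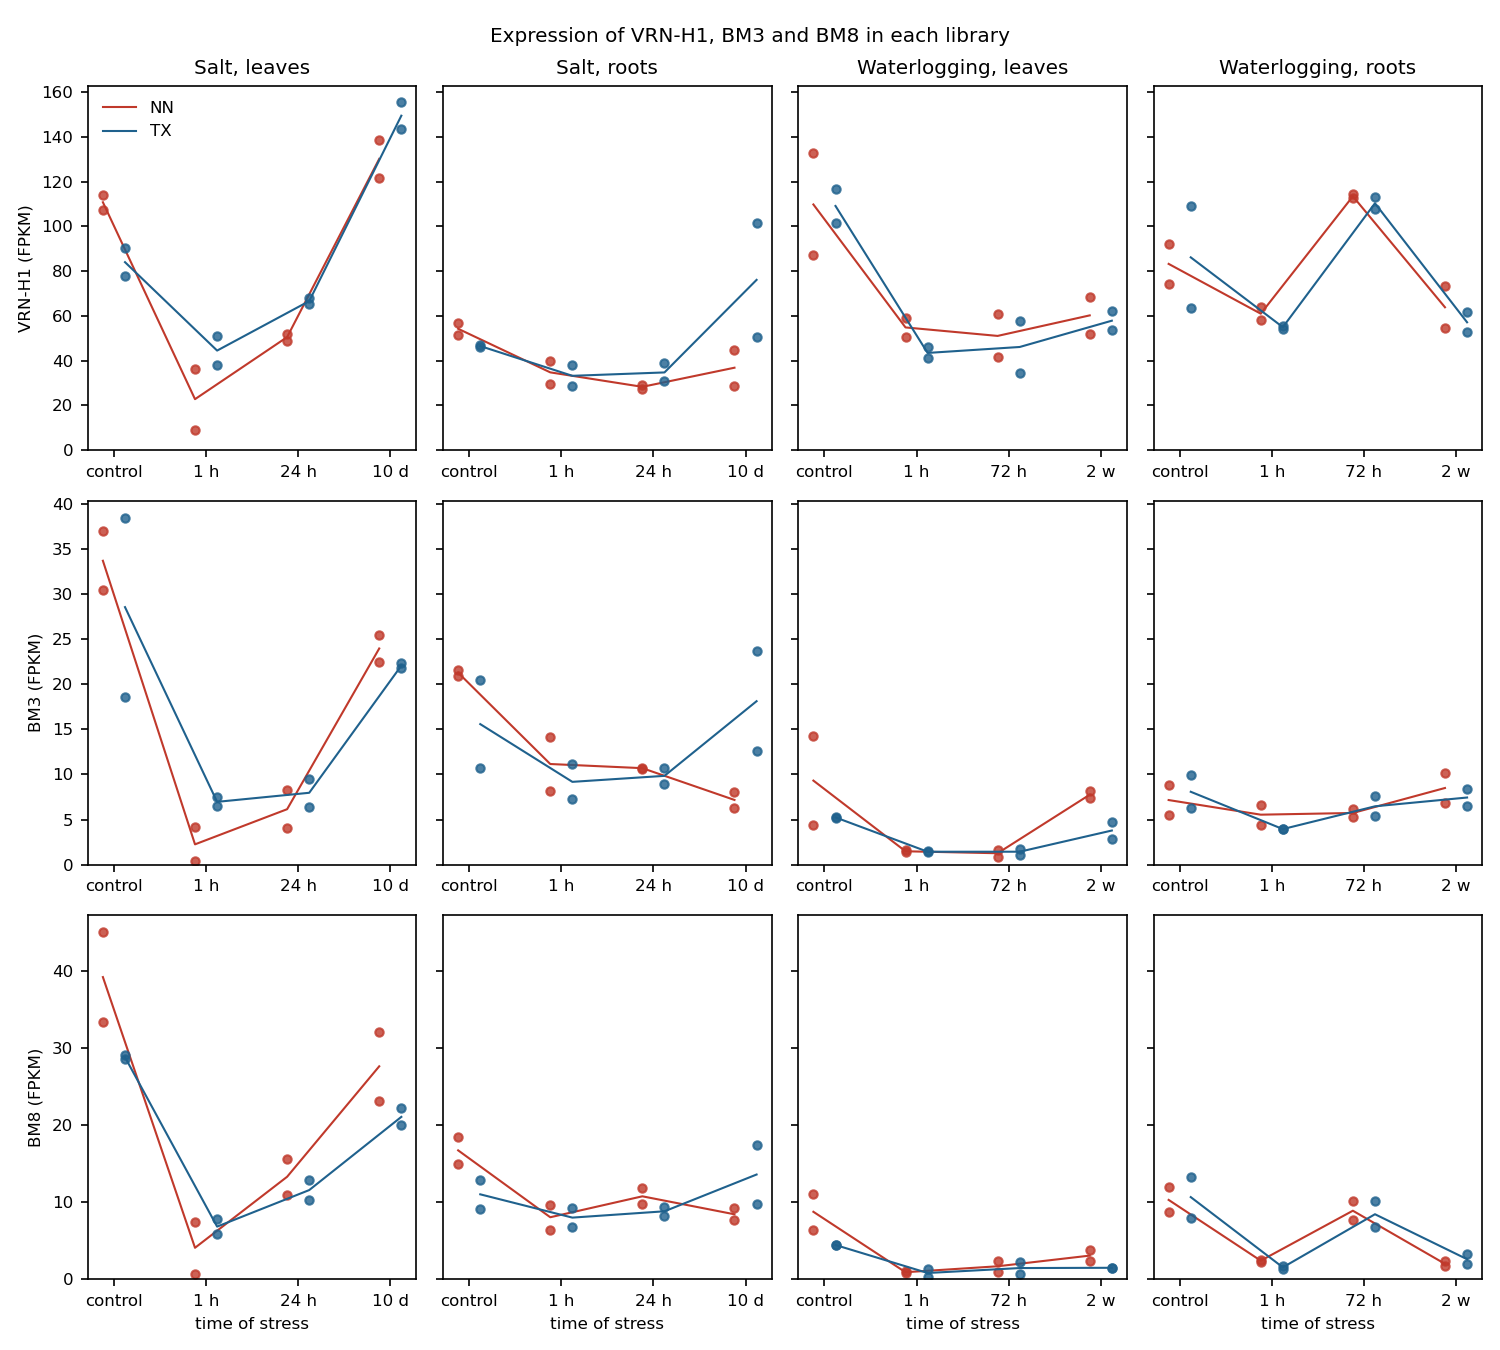
FPKM (vertical axes) of VRN-H1, BM3 and BM8 against time of stress in each of the 64 libraries. Each point is 1 library of NN (red) or TX (blue), and lines join the means of 2 replicates. In salt leaves the means of all 3 genes were lowest at 1 h, with VRN-H1 at 9.11 to 51.0 FPKM, and in waterlogging roots BM8 was low at 1 h and 2 w (1.33 to 3.24 FPKM) and near its controls at 72 h.

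Before stress, the 3 genes were read in roots as well as in leaves. In salt control leaves the mean was 110.8 ± 4.86 FPKM (SD, n = 2) for VRN-H1 in NN and 84.0 ± 8.76 FPKM in TX, and in the control roots 54.2 ± 3.64 and 46.5 ± 0.406 FPKM. BM8 averaged 39.3 ± 8.27 FPKM in NN leaves and 28.8 ± 0.41 FPKM in TX leaves against 16.7 ± 2.47 and 11.0 ± 2.71 FPKM in the roots. BM3 averaged 33.7 ± 4.61 and 28.6 ± 14.0 FPKM in the leaves and 21.3 ± 0.473 and 15.6 ± 6.90 FPKM in the roots. All 3 genes thus had their higher control mean in leaves in the salt experiment.

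In a fit over both tissues, root minus leaf was called lower for VRN-H1 in NN (log2 −1.02, SE 0.40, adjusted p = 0.0378) and for BM8 in NN (−1.17, SE 0.46, adjusted p = 0.0376) and TX (−1.33, SE 0.46, adjusted p = 0.0238). Of all genes, 11.6% in NN and 13.3% in TX were called lower in roots. BM3 gave −0.63 in NN and −0.81 in TX and was not called (adjusted p = 0.283 and 0.177). Each call in NN was lost without any 1 of its 4 libraries (VRN-H1, −1.09 to −0.95; BM8, −1.39 to −0.96), and that of BM8 in TX without 3 of its 4, namely either leaf library or root replicate 2 (−1.34 to −1.10).

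In the waterlogging controls VRN-H1 in both varieties and BM3 in NN again had the higher mean in leaves, while BM8 in both varieties and BM3 in TX had it in roots. VRN-H1 averaged 109.8 ± 32.3 FPKM (SD, n = 2) in NN leaves and 109.1 ± 10.9 FPKM in TX leaves, against 83.2 ± 12.8 and 86.1 ± 32.2 FPKM in the roots. BM8 was 6.39 and 11.1 FPKM in NN control leaves and 8.67 and 11.9 FPKM in NN control roots, which overlap. In TX, BM8 was 4.39 and 4.47 FPKM in leaves and 8.0 and 13.3 FPKM in roots, with every root library above every leaf library. Root minus leaf for BM8 in TX was the only one of the 6 waterlogging differences called (1.06, SE 0.38, adjusted p = 0.0288, with 21.9% of genes called higher in roots). In NN 0 of 3 was called, where 29.8% of genes were called in either direction. That call was lost with median-ratio scaling (0.61, adjusted p = 0.208), with a pseudocount of 0.1 (1.20, adjusted p = 0.0966) and without any 1 of 3 libraries, either leaf library or root replicate 2 (0.73 to 1.07). BM3 was 14.3 and 4.36 FPKM in NN control leaves and 5.26 and 5.21 FPKM in TX, and 5.51 to 9.94 FPKM in the roots. The salt and waterlogging tables were taken as normalized apart, so the levels of BM3 and BM8 in control leaves, 18.6 to 45.1 FPKM in the salt table and 4.36 to 14.3 FPKM in the waterlogging table, were not compared by a test.

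In leaves under salt, all 3 genes stood below both of their controls at 1 h in both varieties, and at 10 d their means were 70.5% to 178% of the control mean. For each change at 1 h, 0.0202% to 13.3% of all genes tested had a lower value. In NN, VRN-H1 fell from 114.2 and 107.3 FPKM in the controls to 9.11 and 36.4 FPKM at 1 h. It then stood at 48.9 and 52.1 FPKM at 24 h and 138.6 and 121.7 FPKM at 10 d. The 10 d libraries were above both controls, while the 1 h and 24 h libraries were below both. At 1 h the change was −2.52 (SE 0.44, adjusted p = 0.0101) and at 24 h −1.12 (SE 0.44, adjusted p = 0.135), which was not called.

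BM3, in NN leaves, went from 37.0 and 30.5 FPKM to 0.365 and 4.13 FPKM at 1 h, 4.02 and 8.27 FPKM at 24 h and 22.5 and 25.5 FPKM at 10 d. BM8 went from 45.1 and 33.4 FPKM to 0.688 and 7.45 FPKM, 11.0 and 15.6 FPKM, and 23.2 and 32.1 FPKM. Both genes were below both controls at each of the 3 times in NN. At 1 h BM3 changed by −3.71 (SE 0.53, adjusted p = 0.00535) and BM8 by −3.40 (SE 0.55, adjusted p = 0.00848), so that their means were 6.66% and 10.4% of control against 20.5% for VRN-H1. At 24 h BM3 remained called (−2.34, SE 0.53, adjusted p = 0.0197) and BM8 was not (−1.50, SE 0.55, adjusted p = 0.113). At 1 h all 3 genes read were called lower in NN leaves, where 3.40% of the 19782 genes tested were, and at 24 h 1 of 3 was, where 3.74% were. With median-ratio scaling all 3 remained called at 1 h, with 61.9% of the genes called there higher than control in place of 26.4%.

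Replicate 1 at 1 h in NN, the library with some TX-particular rows, was the lowest of all salt leaf libraries for each gene. Without it the changes at 1 h were −1.58 for VRN-H1, −2.75 for BM3 and −2.24 for BM8, all still called. Without either NN control library the 3 changes at 1 h were not called, with adjusted p of 0.0524 to 0.0959 and changes of −3.84 to −2.48. The call of BM3 at 24 h was lost without 24 h replicate 1 (−1.90) or either control library (−2.21 and −2.48), and with a pseudocount of 0.1 (−2.52, adjusted p = 0.0670).

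TX leaves had the same order of means over the first 24 h, with smaller differences from control. VRN-H1 was 90.2 and 77.8 FPKM in controls, 37.9 and 51.0 FPKM at 1 h, 68.1 and 65.1 FPKM at 24 h and 143.5 and 155.4 FPKM at 10 d. It was below both controls at 1 h and 24 h and above both at 10 d, and none of these changes was called (−0.91, −0.33 and 0.83, adjusted p = 0.152, 0.589 and 0.179). At 24 h the median gene changed by −0.35, and 51.7% of all genes tested had a lower value than VRN-H1. BM3 was 38.5 and 18.6 FPKM in controls, then 6.46 and 7.47, 9.51 and 6.43, and 21.8 and 22.4 FPKM. BM8 was 29.1 and 28.6 FPKM in controls, then 5.82 and 7.82, 10.3 and 12.9, and 20.0 and 22.2 FPKM. Both were below both controls at 1 h and 24 h, while at 10 d BM3 lay between its 2 controls and BM8 below them.

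In TX leaves at 1 h BM3 changed by −1.81 (SE 0.53, adjusted p = 0.0304) and BM8 by −1.94 (SE 0.55, adjusted p = 0.0262). At 24 h BM3 changed by −1.66 (SE 0.53, adjusted p = 0.0308) and BM8 by −1.26 (SE 0.55, adjusted p = 0.0930). Thus 2 of 3 genes were called lower at 1 h, where 8.34% of genes were, and 1 of 3 at 24 h, where 12.5% were. Median-ratio scaling ended all 3 TX calls (BM3 −1.41 and −1.16, BM8 −1.54, adjusted p of 0.112 to 0.167), and without that scaling the median gene changed by −0.27 at 1 h and −0.35 at 24 h. It also moved the share of called genes that were higher from 26.4% to 66.1% at 1 h and from 27.7% to 67.5% at 24 h. Without control replicate 1, where BM3 was 38.5 FPKM, its changes were −1.31 at 1 h and −1.15 at 24 h and were not called. The BM8 call at 1 h was lost without any 1 of its 4 libraries (−2.13 to −1.76). Those of BM3 were also lost without either library of the stressed group (1 h, −1.90 and −1.72; 24 h, −1.91 and −1.41).

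The return from 24 h to 10 d was tested by itself. In NN leaves VRN-H1 rose by 1.35 (SE 0.44, adjusted p = 0.0277) and BM3 by 1.87 (SE 0.53, adjusted p = 0.0147), and BM8 gave 1.00 (adjusted p = 0.164), where 16.5% of genes were called higher. In TX leaves the differences were 1.15, 1.39 and 0.82 and none was called (adjusted p = 0.0568, 0.0588 and 0.266), where 16.6% were. Without either library of another group, NN leaves at 1 h, both VRN-H1 (adjusted p = 6.69e-04 and 6.67e-04) and BM3 (0.0105 and 0.0106) were called in TX, with the same differences and smaller standard errors. BM3 was likewise called in TX without either TX control library (adjusted p = 0.0441). Without either NN leaf library of 1 h, BM8 from 24 h to 10 d in NN was also called (1.00). So were VRN-H1 (−1.12) and BM8 (−1.50) at 24 h in NN, and BM8 (−1.26) at 24 h in TX. The NN call of VRN-H1 from 24 h to 10 d was lost without any 1 of its 4 libraries (1.25 to 1.44). That of BM3 was lost without 24 h replicate 1 (1.43) or 10 d replicate 2 (1.78). At 10 d against control 0 of 3 genes was called in either variety, where 27.8% of genes in NN and 16% in TX were called in either direction. These 6 differences ran from −0.49 to 0.83, with adjusted p of at least 0.179.

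In roots under salt, all 3 genes had means below control at 1 h and 24 h in both varieties, without a call. VRN-H1 was 51.6 and 56.8 FPKM in NN controls, 39.9 and 29.6 FPKM at 1 h, 27.4 and 29.1 FPKM at 24 h and 28.8 and 44.8 FPKM at 10 d. In TX it was 46.2 and 46.8, 28.4 and 37.9, 38.7 and 30.7, and 101.7 and 50.4 FPKM. VRN-H1 was below both controls at 1 h and 24 h in both varieties, and at 10 d it was below both in NN and above both in TX. At 1 h and 24 h, 0 of 12 differences was called, with values of −0.99 to −0.28 and adjusted p of at least 0.381, where the share of genes called in either direction was 0.0538% (NN, 1 h), 0.157% (NN, 24 h), 1.80% (TX, 1 h) and 0.816% (TX, 24 h).

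BM3, in NN roots, was 21.6 and 21.0 FPKM in controls and 6.29 and 8.06 FPKM at 10 d. BM8 was 15.0 and 18.5 FPKM in controls and 7.62 and 9.22 FPKM at 10 d. Both were below both controls at all 3 times in NN. BM3 was called lower at 10 d (−1.46, SE 0.38, adjusted p = 0.0159), while BM8 (−0.91, SE 0.31, adjusted p = 0.0498) was under the size threshold, and 13.5% of genes were called lower there. The call of BM3 was lost without any 1 of its 4 libraries (−1.61 to −1.30, adjusted p of 0.0563 to 0.103).

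In TX roots at 10 d BM3 was 23.7 and 12.6 FPKM against 20.5 and 10.7 FPKM in controls, and BM8 was 17.4 and 9.79 FPKM against 12.9 and 9.10 FPKM. Both overlapped their controls. Replicate 1 was the higher library for all 3 genes, and it and replicate 2 had the lowest correlation between replicates of any salt root group, 0.811. The change of VRN-H1 from control was 0.61 (SE 0.34, adjusted p = 0.322), without replicate 1 it was 0.12, and without replicate 2 it was 1.11 and called. From 24 h to 10 d it was 1.03 (SE 0.34, adjusted p = 0.0607), called without replicate 2 at 10 d (1.53) and with HORVU rows rescaled to equal totals (1.10, adjusted p = 0.0406). In TX roots at 10 d 0 of 3 genes was called against control, where 3.52% of genes were called in either direction. Against 24 h 0 of 3 was called in either variety, where 22.6% of genes in NN and 11.7% in TX were.

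In waterlogged leaves, all 3 genes were below both controls at 1 h and 72 h in both varieties. The share of all genes so placed was not counted, and only the change of BM8 in NN at 1 h was called. For each change at 1 h and 72 h, 1.05% to 9.75% of all genes tested had a lower value. VRN-H1 was 87.0 and 132.6 FPKM in NN controls, 58.9 and 50.7 FPKM at 1 h, 41.4 and 60.6 FPKM at 72 h and 68.3 and 52.1 FPKM at 2 w. In TX it was 116.8 and 101.4, 45.9 and 40.9, 57.6 and 34.5, and 53.5 and 62.1 FPKM. VRN-H1 stayed below both controls at 2 w in both varieties, at 54.8% of the control mean in NN and 53.0% in TX. None of its 6 changes was called (−1.31 to −0.84, adjusted p of 0.0907 to 0.326). A set of 64 rows was under 0.5 FPKM in all salt and all waterlogging root libraries and reached 10 FPKM in some waterlogging leaf library. Of this set, the number at 1 FPKM or more was 5 and 13 in TX controls, 50 and 48 at 1 h, 41 and 30 at 72 h and 8 and 14 at 2 w. In NN it was 37 and 9, 43 and 7, 22 and 51, and 35 and 28. In TX these rows were thus read most at 1 h and 72 h, and their part in the results in leaves was not tested.

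BM8, in NN leaves, was 6.39 and 11.1 FPKM in controls and then 0.786 and 0.999, 0.931 and 2.40, and 3.74 and 2.36 FPKM. In TX it was 4.39 and 4.47, then 1.30 and 0.287, 2.26 and 0.609, and 1.48 and 1.46 FPKM. BM8 was below both controls at all 3 times in both varieties. It was called at 1 h in NN (−2.32, SE 0.44, adjusted p = 0.0467), making 1 of 3 genes called lower where 0.683% of 21378 genes were, and in TX 0 of 3 was called, where 0.641% were. The call was lost under 5 of the processing alternatives (adjusted p of 0.0581 to 0.0847) and without any 1 of its 4 libraries (−2.68 to −1.97), and the count of genes called there, 159, was 0 to 139 without any 1 of those 4. It was also lost without any 1 of 10 libraries of other groups (−2.32, adjusted p of 0.0550 to 0.0737).

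BM3, in NN leaves, was 14.3 and 4.36 FPKM in controls, 1.58 and 1.37 FPKM at 1 h, 0.883 and 1.63 FPKM at 72 h and 8.16 and 7.35 FPKM at 2 w. In TX it was 5.26 and 5.21, 1.34 and 1.51, 1.08 and 1.77, and 4.71 and 2.85 FPKM. BM3 at 2 w overlapped the controls in NN and lay below both in TX. The differences from control were −1.87 and −2.02 at 1 h and 72 h in NN and −1.36 and −1.38 in TX, and none was called (adjusted p of 0.0745 to 0.243). Without control replicate 2, in which BM3 was 4.36 FPKM, the difference in NN at 72 h was −2.78 and called. Without control replicate 1, in which BM3 was 14.3 FPKM, it was −1.27 and not called.

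At 72 h 0 of 3 genes was called in either variety, where 0.566% and 1.25% of genes were called lower, and at 2 w 0 of 3, where 0.365% and 0.0655% were. From 72 h to 2 w BM3 rose in NN by 1.97 (SE 0.44, adjusted p = 0.0243), where 4.30% of genes were called higher, and gave 0.96 in TX (adjusted p = 0.224), where 5.30% were. This call was lost without any 1 of its 4 libraries (1.73 to 2.22) and without the 3 libraries richest in ENSRNA rows (1.80, adjusted p = 0.298). ENSRNA rows took 20.3% and 10.8% of the summed FPKM in NN leaves at 72 h and 0.748% and 36.1% at 2 w, and the part of this in the result was not tested. Relative depth there was 0.321 and 0.530 at 72 h and 0.966 and 0.201 at 2 w.

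In waterlogged roots, BM8 was called lower than control at 1 h and 2 w and not at 72 h, in both varieties. In NN roots BM8 was 8.67 and 11.9 FPKM in controls, 2.28 and 2.50 FPKM at 1 h, 10.2 and 7.62 FPKM at 72 h and 1.66 and 2.30 FPKM at 2 w. In TX roots it was 8.0 and 13.3, 1.33 and 1.72, 10.1 and 6.77, and 1.92 and 3.24 FPKM. Every 1 h and 2 w library was below every control and every 72 h library, and the 72 h libraries overlapped the controls.

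The change at 1 h was −1.72 in NN (SE 0.29, adjusted p = 0.00199) and −2.17 in TX (SE 0.29, adjusted p = 4.63e-04). At 72 h it was −0.19 and −0.29 (adjusted p = 0.650 and 0.468), and at 2 w −1.91 (adjusted p = 0.00253) and −1.69 (adjusted p = 0.00549). From 72 h to 2 w BM8 fell by 1.73 in NN (adjusted p = 8.24e-04) and by 1.40 in TX (adjusted p = 0.00303). At 1 h and again at 2 w BM8 was the 1 of 3 genes called lower in each variety, where 7.61% (NN) and 7.21% (TX) of genes were at 1 h and 6.78% and 5.04% at 2 w. From 72 h to 2 w, 11.9% and 12.8% of genes were called lower. Median-ratio scaling moved the share of called genes that were higher at 2 w from 38.1% to 70.1% in NN and from 50.5% to 72.5% in TX, with BM8 still called lower. Of these 6 calls, 5 held under every alternative and without any 1 library. The 5 include TX at 1 h, where ENSRNA rows took 14.6% of the summed FPKM in replicate 1. The sixth, TX at 2 w, was lost without TX control replicate 2 (−1.35, adjusted p = 0.0510).

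VRN-H1 in waterlogging roots had its highest mean at 72 h. It was 74.2 and 92.2 FPKM in NN controls, 63.8 and 58.1 FPKM at 1 h, 112.6 and 114.2 FPKM at 72 h and 54.5 and 73.1 FPKM at 2 w. In TX it was 63.3 and 108.9, 54.3 and 55.5, 113.1 and 107.6, and 52.6 and 61.6 FPKM. The 72 h libraries were above both controls in NN and overlapped them in TX, and the 1 h and 2 w libraries were below both controls in each variety. No change of VRN-H1 from control was called (−0.59 to 0.45, adjusted p of 0.0828 to 0.253). From 72 h to 2 w it gave −0.83 in NN (SE 0.24, adjusted p = 0.0149) and −0.94 in TX (SE 0.24, adjusted p = 0.00847), under the size threshold. Leaving out replicate 2 at 2 w took each past it (−1.04 and −1.05).

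BM3 in waterlogging roots stayed between 3.92 and 10.1 FPKM in all 16 libraries. It overlapped its controls at each time except in TX at 1 h, where it was 3.96 and 3.92 FPKM against 6.22 and 9.94 FPKM in controls. That difference was −0.85 (SE 0.29, adjusted p = 0.0483), under the size threshold, and −1.15 and called without control replicate 1. At 2 w BM3 differed from control by 0.23 in NN and −0.08 in TX, with BM8 at −1.91 and −1.69 in the same libraries. At 72 h 0 of 3 genes was called in either variety, where 23.4% and 22.8% of genes were called in either direction.

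**Figure D2:**
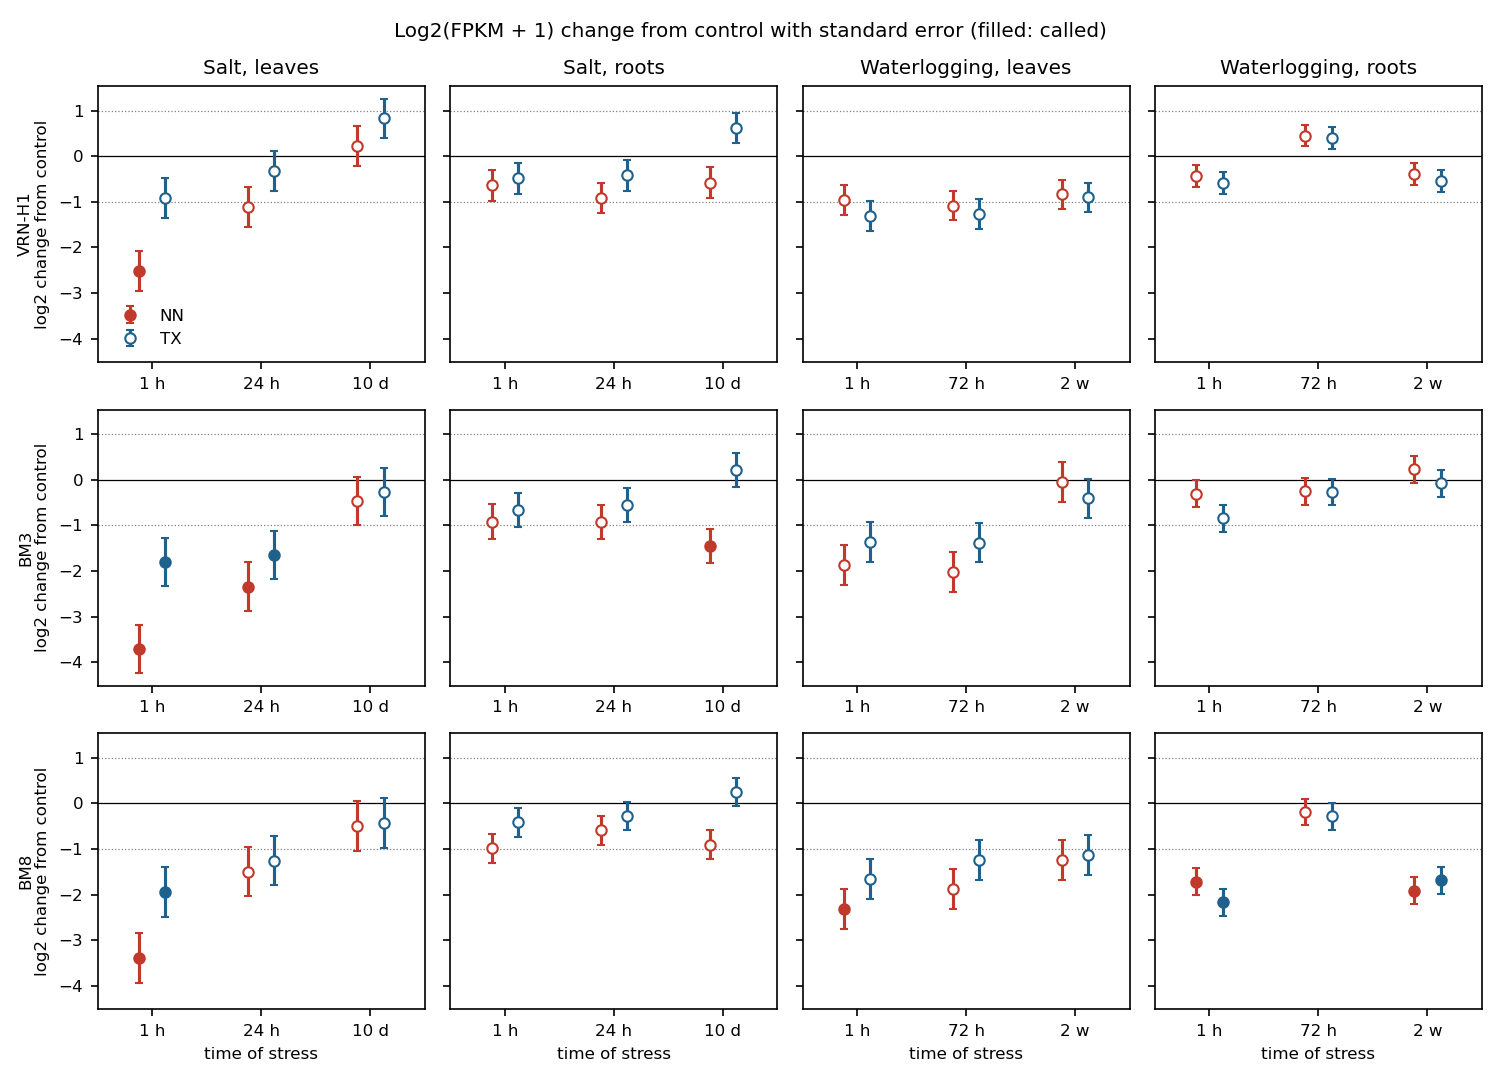
Change from control on the log2(FPKM + 1) scale (vertical axes) for VRN-H1, BM3 and BM8 at each time of stress in NN (red) and TX (blue), with bars of 1 standard error. Filled points were called and dotted lines mark a log2 change of 1. The called points are 7 in salt leaves, 1 in salt roots, 1 in waterlogging leaves and 4 in waterlogging roots, all lower than control.

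Over both experiments, 13 of 72 changes from control were called, all 13 lower, and 39 of the 72 had an unadjusted p under 0.05. By gene, VRN-H1 had 1 of these calls, BM3 had 5 and BM8 had 7. Among all genes, the share called in either direction ran from 0.0538% (salt NN roots, 1 h) to 27.8% (salt NN leaves, 10 d). How many of all genes had an unadjusted p under 0.05 was not counted. Changes at different times share their controls and the genes share their libraries, so the 72 are not independent. These totals are description only.

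The levels of BM3 and BM8 relative to VRN-H1 in the same library do not depend on the scaling of the library. In salt leaves BM8 was 31.1% to 39.5% of VRN-H1 in the 4 control libraries, 7.54% to 20.5% at 1 h, 15.1% to 30.0% at 24 h and 13.9% to 26.4% at 10 d. BM3 was 24.0% to 42.7% of VRN-H1 in controls, then 4.01% to 17.0%, 8.23% to 15.9% and 14.4% to 21.0%. At each of the 3 times every library lay below every control for both ratios, including 10 d, when VRN-H1 was above its controls. In salt roots, over both varieties together, the ratios overlapped those of the controls at every time, with BM8 at 19.5% to 32.5% of VRN-H1 in controls and 17.1% to 26.5% at 10 d. In NN roots alone BM3 was 36.9% and 41.9% of VRN-H1 in controls and 21.8% and 18.0% at 10 d, without overlap. BM8 there was 29.0% and 32.5% of VRN-H1 in controls, below the 42.9% and 33.5% at 24 h and above the 26.5% and 20.6% at 10 d.

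In waterlogging roots BM8 was 11.7% to 12.9% of VRN-H1 in the 4 controls, 2.45% to 4.31% at 1 h, 6.30% to 9.01% at 72 h and 3.05% to 5.26% at 2 w. All stressed libraries were thus below the controls in this ratio, also at 72 h, when BM8 itself overlapped its controls. BM8 was 98.3% to 216% of BM3 in root controls, 34.0% to 51.7% at 1 h, 123% to 193% at 72 h and 22.7% to 49.7% at 2 w. In waterlogging leaves BM8 was 3.76% to 8.38% of VRN-H1 in controls and 0.702% to 2.83% at 1 h, without overlap, and 2.35% to 5.48% at 2 w, with overlap. These ratios were read as a description, with no test.

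**Figure D3:**
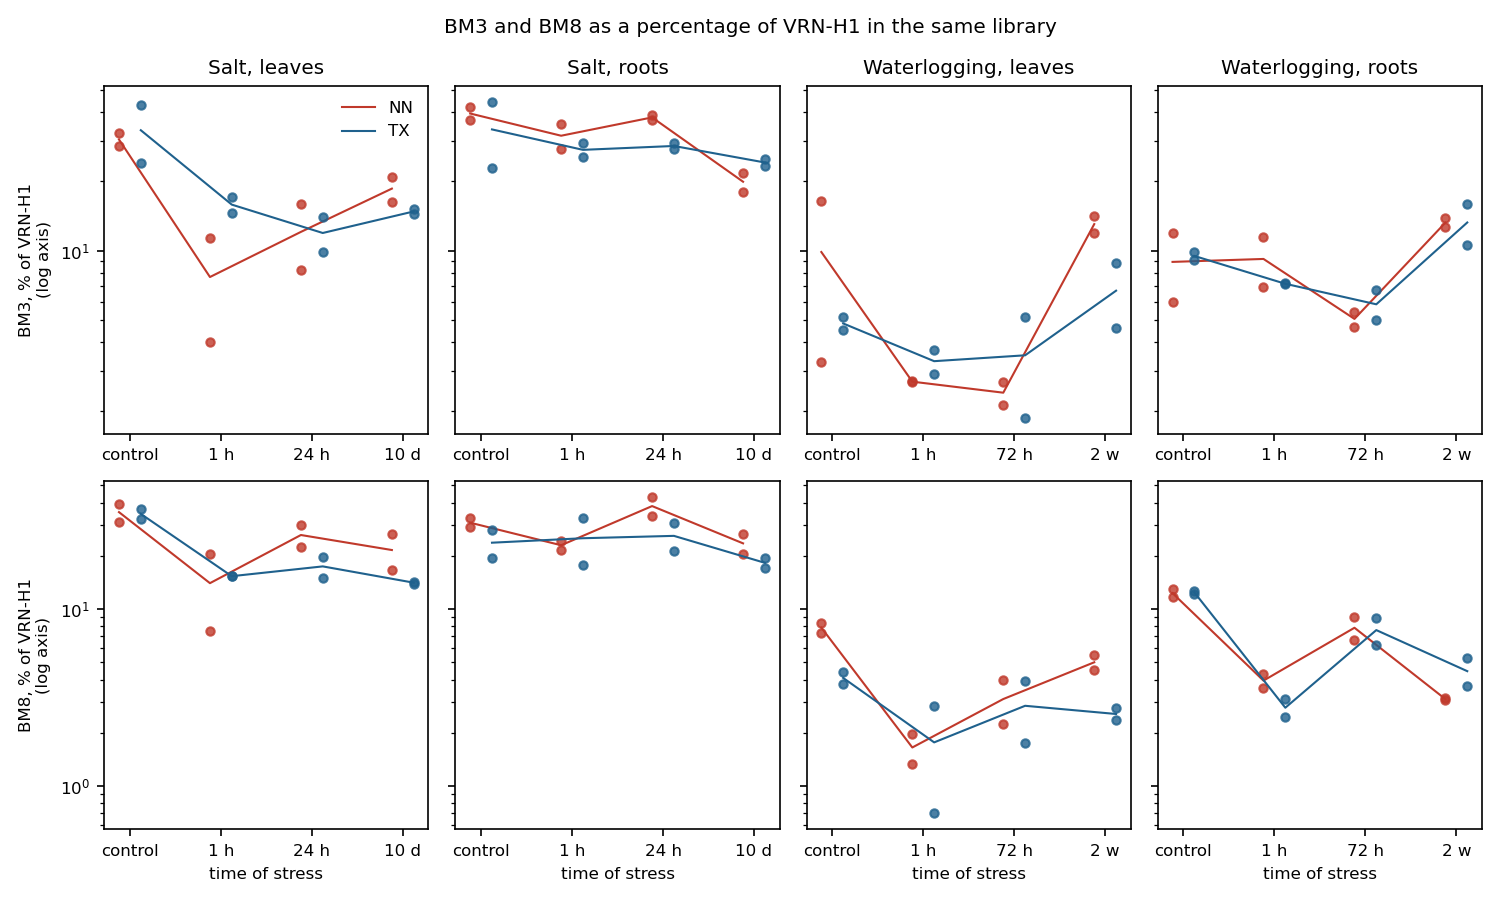
BM3 and BM8 as a percentage of VRN-H1 in the same library (vertical axes, logarithmic) against time of stress. Each point is 1 library of NN (red) or TX (blue), and lines join the means of 2 replicates. BM8 was 11.7% to 12.9% of VRN-H1 in waterlogging root controls and 2.45% to 4.31% at 1 h.

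The varieties were compared in the controls, over all times and in their responses. Before stress 0 of 12 differences, TX minus NN, was called and 0 had an unadjusted p under 0.05, with values of −0.80 to 0.15. Of all genes, 9.07% in leaves and 5.19% in roots of the salt experiment and 1.10% and 2.88% in waterlogging were called in either direction. Over all 4 times together 0 of 12 was called, again with 0 unadjusted p under 0.05, and the values were −0.45 to 0.38. There the shares of genes called in either direction were 3.40% and 2.93% in salt leaves and roots and 2.08% and 2.92% in waterlogging.

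Of the 36 differences in response, 0 was called by limma and 5 had an unadjusted p under 0.05. The shares of genes called in either direction were 0.298%, 3.50% and 2.05% at the 3 times in salt leaves and 0.215%, 0.0224% and 1.39% in salt roots. In waterlogging they were 0% at each time in leaves and 0.00908%, 0.472% and 0.114% in roots. These shares moved widely without 1 of the libraries compared: the counts behind the salt leaf shares, 59, 693 and 406, were then 0 to 1617, 0 to 2793 and 72 to 1444, and those behind the salt root shares, 48, 5 and 311, were 2 to 1488, 0 to 635 and 12 to 6149. The widest were in salt. At 1 h in leaves the response of TX minus that of NN was 1.61 for VRN-H1 (SE 0.62, adjusted p = 0.237), 1.90 for BM3 (SE 0.75, adjusted p = 0.251) and 1.46 for BM8 (SE 0.77, adjusted p = 0.388). Without NN replicate 2 at 1 h, which leaves the lowest library alone in its group, the 3 differences were 2.55, 2.85 and 2.62 and were called. Without NN replicate 1 they were 0.67, 0.94 and 0.29 and were not called.

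In roots at 10 d of salt the response of TX minus that of NN was 1.19 for VRN-H1 (SE 0.47, adjusted p = 0.176), 1.66 for BM3 (SE 0.53, adjusted p = 0.121) and 1.16 for BM8 (SE 0.45, adjusted p = 0.166). Without TX replicate 2 at 10 d they were 1.69, 2.09 and 1.54 and were called, and without TX control replicate 1 BM3 gave 2.10 and was called. Leaving out TX replicate 2 keeps only replicate 1, the higher library for each gene. The lowest values without 1 of the libraries compared were 0.69 (VRN-H1), 1.23 (BM3) and 0.77 (BM8), and were not called. In waterlogging roots the response of BM8 in TX minus NN was −0.45 (SE 0.41) at 1 h, −0.10 (SE 0.41) at 72 h and 0.23 (SE 0.41) at 2 w, with adjusted p of at least 0.952. A p that misses the threshold does not show that the varieties responded alike.

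Across the 32 leaf libraries of both experiments, each table centred on its own mean, the row whose log2(FPKM + 1) was most like that of VRN-H1 among 18716 rows was BM8 (Pearson r = 0.899), and the row most like BM8 was VRN-H1. Within the tables r of this pair was 0.911 in salt leaves and 0.902 in waterlogging leaves, while it was 0.918 and 0.59 for VRN-H1 and BM3 and 0.943 and 0.692 for BM3 and BM8. For BM3 the most similar row was HORVU2Hr1G098380 (r = 0.867), which averaged 5.48 FPKM in salt control leaves and 2.14 FPKM at 1 h, and BM8 came next (r = 0.859). VRN-H1 and BM3 had r = 0.825, at rank 3 among rows like VRN-H1 and rank 5 among rows like BM3. In the 32 root libraries the values over both tables were lower, 0.714 for VRN-H1 and BM8, 0.555 for VRN-H1 and BM3 and 0.416 for BM3 and BM8, and BM8 was at rank 344 of 21076 rows like VRN-H1. Within the root tables r was 0.677 (salt) and 0.842 (waterlogging) for VRN-H1 and BM8, 0.781 and 0.19 for VRN-H1 and BM3 and 0.829 and 0.281 for BM3 and BM8. The libraries share their depth, variety and time groups, so these values describe the profiles only.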

How the data were processed

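RNA from leaves and roots was enriched with oligo(dT) beads and sequenced. The authors deposited FPKM, 1 table per experiment. HISAT, HISAT2 and featureCounts 1.5.0 stand in the submitters' processing notes, and no source used here gives the build. Another 82 columns of values (waterlogging, repeated sheets) were left out.

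Groups follow the variety, tissue and time of the labels. Nothing in the labels places replicates in separate cultures, so p-values measure the spread between these libraries. Tests used limma 3.58.1 in R 4.3.3 (trended empirical Bayes) on log2(FPKM + 1) for rows reaching 0.5 FPKM in 2 or more libraries, per experiment and tissue (16 libraries), with Benjamini-Hochberg adjustment over all rows tested. The fit was also run on simulated data with independent normal noise per gene, which cannot show how outlying libraries affect the calls. Alternatives were a pseudocount of 0.1, no filter, median-ratio scaling, HORVU rows rescaled to equal totals, a replicate block, no trend, leaving out the 3 libraries of waterlogged leaves with most ENSRNA signal, and leaving out each library. The text names the 4 genes and, for each gene read, the row most like it in leaves. The genes and tests were chosen with earlier results of these data known. Of the identifiers, 0 were found in the RefSeq gene table, and other flowering genes were not analysed here. Figures used Python 3.11.15, pandas 2.3.3, numpy 2.4.6 and matplotlib 3.10.9.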

Additional observations from a re-analysis of the deposited data

Results flagged for a closer look

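VRN-H1 in roots after 10 d of salt was flagged because both NN libraries lay below their controls and both TX libraries above theirs. The values were 28.8 and 44.8 FPKM against 51.6 and 56.8 FPKM in NN, and 101.7 and 50.4 FPKM against 46.2 and 46.8 FPKM in TX. Neither change was called by limma (NN −0.58, adjusted p = 0.213; TX 0.61, adjusted p = 0.322), and the TX change was 0.12 without replicate 1. The response of TX minus that of NN was 1.19 on the log2(FPKM + 1) scale (SE 0.47, adjusted p = 0.176 by limma), which was not called. Of all genes tested, 86.6% had a lower value, and the median gene gave 0.27. BM3 gave 1.66, above 93.5% of genes. The share of all genes with such opposite placement in the varieties was not counted. Rows particular to the other variety were read above 0.5 FPKM in 3 of these 4 libraries of 10 d (5 of 20 in NN replicate 2, 6 and 4 of 25 in the TX replicates), and their part in the result was not tested.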

How the results depend on the processing

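None of the 22 called differences among the 168 compared reversed its direction under any alternative. Of the 22 calls, 10 held under every processing alternative, and 5 of these, all of BM8 in waterlogging roots, also without any 1 library. Calls were lost as follows. With a pseudocount of 0.1, in salt leaves, BM3 gave −2.52 (NN 24 h), 2.03 (NN 10 d against 24 h), −1.93 (TX 1 h) and −1.76 (TX 24 h) and BM8 −2.08 (TX 1 h), BM8 gave −3.11 in waterlogging NN leaves at 1 h, and BM8 root minus leaf was −1.22 (salt NN), −1.40 (salt TX) and 1.20 (waterlogging TX). Leaving off the filter on low values added rows tested and also moved the standard errors (BM3 in salt TX leaves at 1 h, 0.546 in place of 0.528). Without the filter, BM3 in salt TX leaves (−1.81 at 1 h, −1.66 at 24 h) and BM8 in waterlogging NN leaves at 1 h (−2.32) were lost. Root minus leaf in salt NN for VRN-H1 (−1.02) and BM8 (−1.17) was lost too. With median-ratio scaling VRN-H1 gave 1.15 (salt NN leaves, 10 d against 24 h), BM3 −1.41 and −1.16 (salt TX leaves, 1 h and 24 h), BM8 −1.54 (salt TX leaves, 1 h), −2.14 (waterlogging NN leaves, 1 h) and 0.61 (waterlogging TX, root minus leaf). The cause was not tested. With HORVU rows rescaled, calls were gained for VRN-H1 (1.20) and BM3 (1.43) in salt TX leaves and VRN-H1 (1.10) in salt TX roots, all 10 d against 24 h. Without the 3 libraries richest in ENSRNA rows BM8 in waterlogging NN leaves at 1 h (−2.32) and BM3 from 72 h to 2 w (1.80) were lost.

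The replicate block ended 1 call, BM8 in waterlogging NN leaves at 1 h (−2.32, adjusted p = 0.0740), and no other. The numbers were not treated as pairs, since same-numbered deviations correlated above 0.1 in 4 to 13 of 28 pairs of groups per fit. Single pairs of groups ran from −0.677 to 0.64 in waterlogging leaves and from −0.32 to 0.509 in salt roots.

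Leaving out each library in turn gave these lowest and highest values where a call changed. In salt NN leaves at 1 h they were −3.47 and −1.58 (VRN-H1), −4.66 and −2.75 (BM3), and −4.56 and −2.24 (BM8). At 24 h they were −1.16 and −1.07 (VRN-H1), −2.78 and −1.90 (BM3), and −1.73 and −1.26 (BM8), and from 24 h to 10 d 1.25 and 1.44, 1.43 and 2.31, and 0.77 and 1.24. In salt TX leaves they were −2.31 and −1.31 (BM3, 1 h), −2.13 and −1.76 (BM8, 1 h), −2.16 and −1.15 (BM3, 24 h), −1.41 and −1.11 (BM8, 24 h), 1.10 and 1.21 (VRN-H1, 10 d against 24 h) and 1.14 and 1.64 (BM3, 10 d against 24 h). The response of TX minus NN in salt leaves at 1 h gave 0.67 and 2.55, 0.94 and 2.85, and 0.29 and 2.62, and in salt roots at 10 d 0.69 and 1.69, 1.23 and 2.10, and 0.77 and 1.54. In salt roots BM3 in NN at 10 d gave −1.61 and −1.30, and VRN-H1 in TX 0.12 and 1.11 (10 d) and 0.54 and 1.53 (10 d against 24 h). In waterlogging NN leaves BM8 at 1 h gave −2.68 and −1.97, and BM3 −2.78 and −1.27 (72 h) and 1.73 and 2.22 (2 w against 72 h). In waterlogging roots VRN-H1 from 72 h to 2 w gave −1.04 and −0.63 (NN) and −1.05 and −0.83 (TX), BM3 at 1 h in TX −1.15 and −0.55, and BM8 at 2 w in TX −2.02 and −1.35. Root minus leaf gave −1.09 and −0.95 (VRN-H1, salt NN), −1.39 and −0.96 (BM8, salt NN), −1.56 and −1.10 (BM8, salt TX) and 0.73 and 1.40 (BM8, waterlogging TX).

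Leaving out 1 of the libraries compared moved the count of genes called by over 1.5 times in 36 of 56 contrasts, and with it the share of all genes called (salt NN leaves at 1 h, 915 genes, 60 to 1494). The count of genes called in waterlogging NN leaves at 1 h was 159, and 62 with median-ratio scaling, 96 with the replicate block and 16 without the 3 libraries richest in ENSRNA rows. From 72 h to 2 w there it was 1397, and 122 without those libraries. Median-ratio scaling also moved by over 10 points the share of called genes that were higher in 22 of 53 contrasts, among them salt TX from 24 h to 10 d (71.5% to 47.0% in leaves, 58.0% to 40.9% in roots), salt TX minus NN in control leaves (57.8% to 33.0%) and in the 24 h response of leaves (23.1% to 73.9%), waterlogging NN leaves at 2 w (44.3% to 65.7%), root minus leaf (70.4% to 58.9% in salt NN, 63.8% to 46.7% in waterlogging NN and 64.6% to 49.1% in waterlogging TX) and 72 h to 2 w in waterlogging roots (54.4% to 64.6% in NN, 49.1% to 64.8% in TX). In waterlogging NN roots at 2 w the count was 2413, and 3702 with a pseudocount of 0.1. FPKM hold no totals, so no counting error could be given, and 2 libraries a group limit every test.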
